A study of Mus musculus with 123 samples.

Results

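The genes described here encode the channels that let calcium, sodium and the pacemaker current cross the neuronal membrane, and the channels that release calcium from internal stores. They were picked by symbol alone: Cacn for voltage-gated calcium channel subunits, Scn for voltage-gated sodium channel subunits, Hcn for pacemaker channels, Ryr for ryanodine receptors and Itpr for inositol trisphosphate receptors. The rule found 43 genes among the 13842 genes measured, and all 43 entered every test. They comprised 10 calcium channel pores, 3 alpha2delta subunits, 4 beta subunits, 6 gamma subunits, 4 pacemaker channels, 6 store-release channels, 6 sodium channel pores and 4 sodium channel beta subunits.

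Messenger RNA was measured by RNA-seq, and accessible chromatin by ATAC-seq, in cerebral cortex of male C57BL/6J mice aged 11 to 12 weeks, an inbred strain kept on equal light and dark phases. Sleep deprivation lasted 6 h, began when the lights came on (T24 of the study's clock) and was done by gentle handling, and 36 deprived animals had RNA values, 3 in each of 12 groups. T27 and T30 fell within and at the end of deprivation, T36 and T42 in the first recovery, T48 to T66 on the day after, T72 and T78 on the day after that, and T192 and T198 about a week later. The 26 controls were left undisturbed, where ZT counts hours from lights on: the ZT0 group had 8 mice, the ZT3 group 3, and the ZT6, ZT12 and ZT18 groups had 5 apiece. Each deprived group was set against controls of the same time of day, so T30, T54, T78 and T198 share the ZT6 controls, T36 and T60 share ZT12, T42 and T66 share ZT18, and T48, T72 and T192 share ZT0. Tissue was whole cortex, in which fewer cells of a type and less RNA per cell cannot be told apart.

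Voltage-gated calcium channels open when a neuron is depolarized, and the pore is carried by an alpha1 subunit whose delivery to the membrane depends on beta and alpha2delta subunits. Sodium channels fire the action potential, and pacemaker channels carry an inward current that opens on hyperpolarization. A calcium-dependent hyperpolarization model of slow-wave sleep holds that calcium entering through such channels opens calcium-activated potassium channels and silences the cell, and mice lacking the T-type pores Cacna1g or Cacna1h sleep less. Cacng2 (stargazin) and Cacng8 carry calcium channel names but are best known as auxiliary subunits of AMPA-type glutamate receptors. All 6 gamma subunits were grouped by symbol and not by known function.

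Values are the authors' deposited levels on a log2(level + 0.5) scale. Changes are log2 differences from limma fitted on all genes, with a standard error (SE), and a gene is called when its Benjamini-Hochberg adjusted p over all genes is below 0.05. The scale of the levels with respect to gene length is not given, so levels are compared between groups and never between genes. RNA libraries held over 36 M reads each with a median of 55 M, per the labels' protocols.

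After 3 h of deprivation (T27), 2 of the 43 channel genes rose and none fell, Cacnb1 and Cacng2. At this time 4.65% of the channel genes were called, against 15.6% of all genes, 8.21% higher and 7.37% lower. A further 6 channel genes had an unadjusted p below 0.05 without being called, among them Scn1a, Cacnb2, Cacna2d1 and Scn2a1 at lower values and Cacna1g at a higher value. The median change over the 43 genes was -0.03, and over all genes -0.01.

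Cacnb1, a beta subunit that brings the calcium channel pore to the membrane, lies at chr11:98001508-98023034 of GRCm38. Its levels were 6.58, 6.72 and 6.73 in T27 animals, against 6.35, 6.43 and 6.35 in ZT3 animals. Every deprived animal lay above every control. The change was 0.30 (SE 0.06, a fold of 1.23, adjusted p = 0.000308 by limma).

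Cacng2 (chr15:77991919-78120220) had levels of 5.73, 5.77 and 5.84 at T27, against 5.51, 5.57 and 5.63 at ZT3. The groups did not overlap. The change was 0.21 (SE 0.07, adjusted p = 0.0458 by limma), and the call was lost when any of the 6 libraries was left out, with adjusted p between 0.0561 and 0.164. Within batch 1 alone the count of channel genes called at T27 was 1, Cacnb1.

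At the end of deprivation (T30), 10 of the 43 channel genes were called, 8 higher and 2 lower. Among the 8 that rose were Cacng2, Cacnb1, Cacna1c, Cacng8, Cacna1g, Ryr2 and Cacna1a, and the 2 that fell were Scn1a and Cacna2d1. Their changes were small, from a fall of 0.30 to a rise of 0.36 on the log2 scale. The share called was 23.3% of the channel genes, against 31.6% of all genes, 16% higher and 15.6% lower. The median change over the 43 was 0.03, and over all genes 0.00. Within batch 1 alone 11 channel genes were called, 9 higher and 2 lower.

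Among the pores, 3 of 10 calcium channel pores rose at T30. Cacna1c, the L-type pore that couples activity to gene expression (chr6:118587240-119197384), had levels of 4.61, 4.81 and 4.95 at T30, against 4.36, 4.48, 4.52, 4.57 and 4.40 at ZT6. No T30 animal fell inside the control range. The change was 0.33 (SE 0.08, a fold of 1.25, adjusted p = 0.00206 by limma).

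Cacna1g, the T-type pore that supports burst firing (chr11:94408391-94474400), stood at 6.71, 6.56 and 6.74 at T30, against 6.30, 6.54, 6.29, 6.46 and 6.38 at ZT6. The groups did not overlap, with T6N3 just below the lowest T30 animal. The change was 0.27 (SE 0.09, adjusted p = 0.0177 by limma). The call was lost without T6N4, T30S1 or T30S4, with adjusted p of 0.0541, 0.0647 and 0.0907.

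Cacna1a, the P/Q-type pore of fast transmitter release (chr8:84338631-84640251), stood at 7.12, 7.18 and 7.22 at T30, against 6.93, 7.06, 6.98, 6.97 and 6.98 at ZT6. Its T30 animals all lay above the controls. The change was 0.19 (SE 0.04, adjusted p = 0.000139 by limma). The other 7 calcium channel pores were not called, and the median change of the 10 was 0.17.

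The auxiliary subunits moved both ways. Cacnb1 stood at 6.58, 6.65 and 6.65 at T30, against 6.21, 6.45, 6.21, 6.35 and 6.20 at ZT6. The change was 0.34 (SE 0.05, a fold of 1.27, adjusted p = 3.12e-06 by limma), with no overlap between the groups. Of the other beta subunits, Cacnb2, Cacnb3 and Cacnb4, none was called.

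Cacng2 had the largest rise of the 43 at T30. Its levels were 5.77, 5.83 and 5.94 at T30, against 5.45, 5.57, 5.44, 5.45 and 5.53 at ZT6. The groups did not overlap, and the change was 0.36 (SE 0.07, a fold of 1.28, adjusted p = 5.83e-05 by limma). Cacng8 (chr7:3394042-3416266) stood at 5.84, 6.03 and 5.86 at T30, against 5.58, 5.90, 5.54, 5.68 and 5.37 at ZT6. For Cacng8 the control T6N3 lay inside the T30 range, and the change was 0.30 (SE 0.07, adjusted p = 0.00039 by limma). Fitted on the compared groups alone, the Cacng8 change was 0.24 with an adjusted p of 0.142 in limma.

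Cacna2d1, the alpha2delta subunit bound by gabapentin (chr5:15934264-16374511), fell at T30. Its levels were 6.71, 6.73 and 6.84 at T30, against 7.01, 6.94, 7.14, 7.01 and 6.96 at ZT6. All deprived animals lay below all controls, and the change was -0.25 (SE 0.06, adjusted p = 0.00101 by limma). At T27 the groups did not overlap either, at 6.69 ± 0.03 in T27 animals and 6.83 ± 0.02 in ZT3 animals (SD, n = 3 each), but the change of -0.14 did not pass (adjusted p = 0.152 by limma).

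Scn1a, the sodium channel pore best known from fast-spiking inhibitory neurons (chr2:66270781-66440837), was the sodium channel gene that fell at T30. Its levels were 6.16, 6.28 and 6.33 at T30, against 6.56, 6.54, 6.63, 6.54 and 6.57 at ZT6. Every deprived animal lay below every control. The change was -0.30 (SE 0.08, a fold of 0.81, adjusted p = 0.00285 by limma). Of the other 5 sodium channel pores none was called, and none of the 4 sodium channel beta subunits, whose changes ran from -0.20 to 0.09.

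Ryr2, a ryanodine receptor that releases calcium from the endoplasmic reticulum (chr13:11553099-12106945), stood at 5.38, 5.60 and 5.64 at T30, against 5.21, 5.15, 5.34, 5.40 and 5.23 at ZT6. The T30 animal T30S1 lay inside the control range, and the change was 0.26 (SE 0.10, adjusted p = 0.0397 by limma). The call was lost without T6N2, T6N3, J76N2, T30S3 or T30S4, with adjusted p between 0.0573 and 0.176, and after centring each library on its median the adjusted p was 0.0503.

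**Figure D1:**
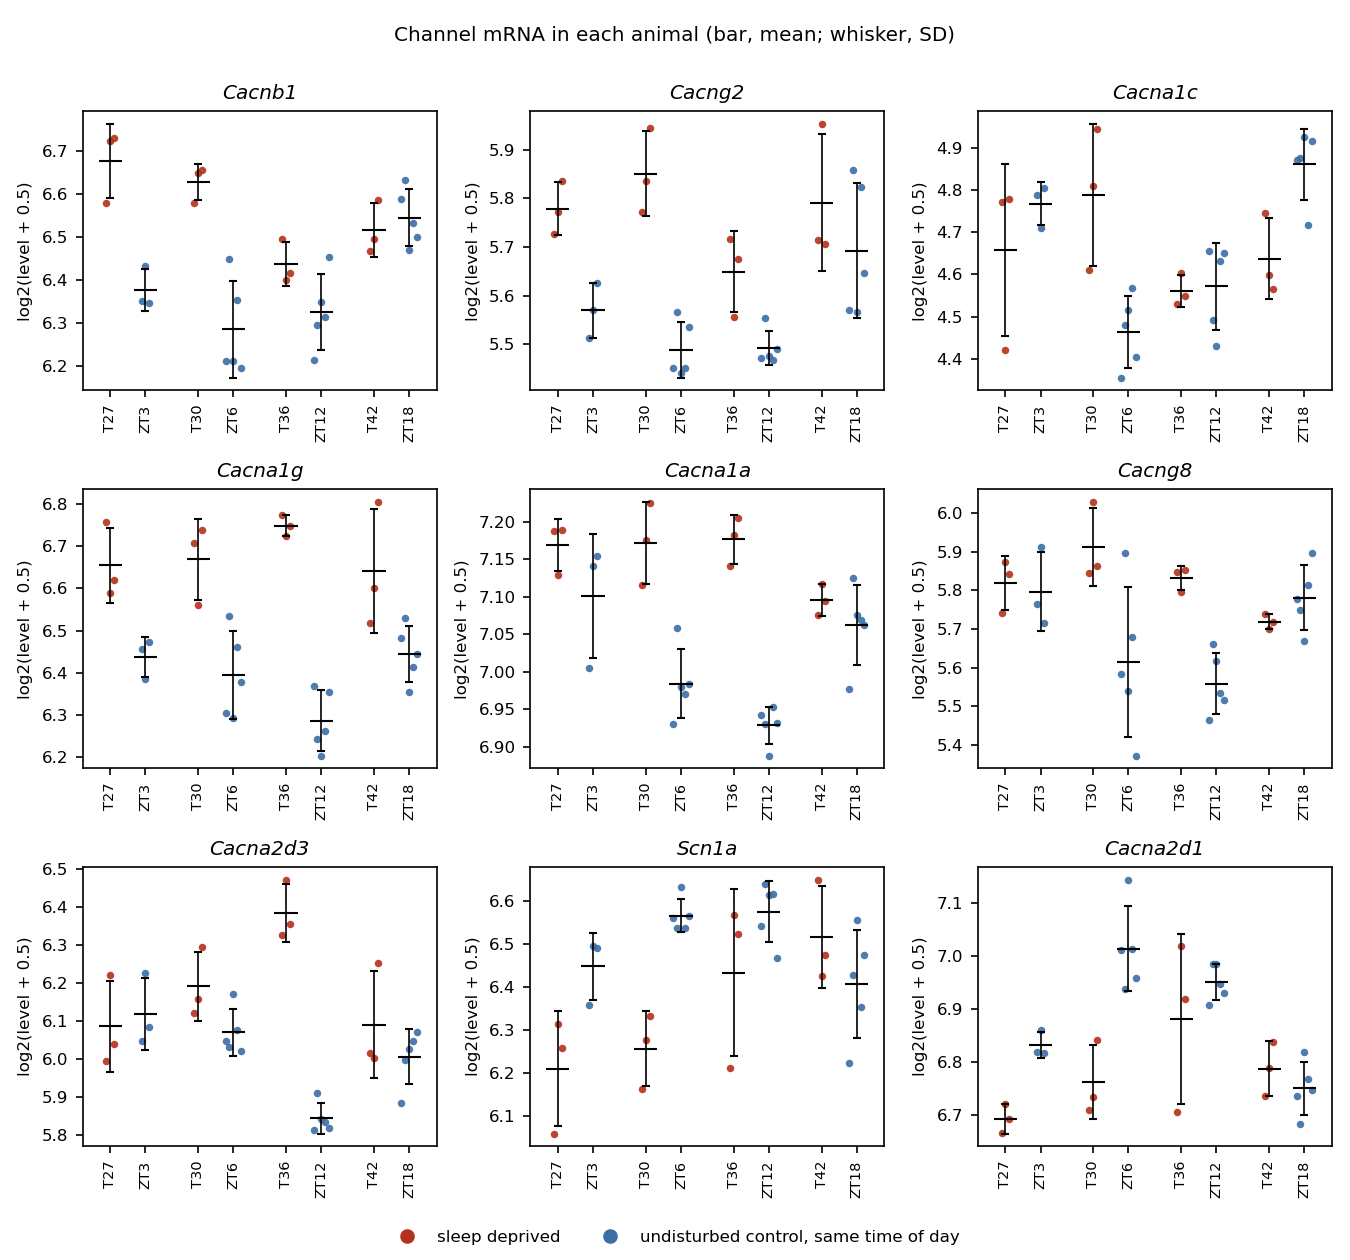
Level of 9 channel genes in each animal, on the log2(level + 0.5) scale, for T27, T30, T36 and T42 animals (red) beside controls of the same time of day (blue); bars are means and whiskers SD. Cacna2d3 at T36 lies between 6.33 and 6.47, above the ZT12 animals at 5.81 to 5.91, and Cacnb1 and Cacng2 are higher at T27 and T30 with no overlap.

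After 6 h of recovery (T36), 6 channel genes were called, and the leading one was a gene that had not been called during deprivation. Cacna2d3, Cacna1g, Cacng8 and Cacna1a rose, while Cacnb2 and Scn2a1 fell. The share called was 14% of the channel genes, near the 11.9% of all genes, 7.46% higher and 4.46% lower. Within batch 1 alone 4 channel genes were called, all higher.

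Cacna2d3, an alpha2delta subunit (chr14:28904943-29722775), had the largest change of any channel gene called at any time. Its levels were 6.33, 6.47 and 6.35 at T36, against 5.81, 5.91, 5.84, 5.83 and 5.82 at ZT12. The lowest T36 animal lay above all 26 undisturbed controls of every time of day, whose highest value was 6.26. The change at T36 was 0.54 (SE 0.07, a fold of 1.46, adjusted p = 7.11e-08 by limma).

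The Cacna2d3 change differed from that at the neighbouring times. It was 0.42 larger at T36 than at T30 (SE 0.09, adjusted p = 0.0013 by limma), where the change was 0.12 and not called. At T42 the change was 0.09, which was 0.46 smaller than at T36 (adjusted p = 0.00187 by limma). The animals stood at 6.01, 6.00 and 6.25 at T42, against 5.88, 6.00, 6.03, 6.05 and 6.07 at ZT18.

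Cacna1g stood at 6.77, 6.72 and 6.75 at T36, against 6.37, 6.24, 6.20, 6.26 and 6.35 at ZT12. The 3 T36 animals were above all 26 undisturbed controls. The change was 0.46 (SE 0.09, a fold of 1.38, adjusted p = 0.000362 by limma). It was not shown to differ from the T30 change, since neither Cacna1g nor Cacng8 nor Cacna1a was among the 3 members called in that test.

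Cacna1a stood at 7.14, 7.18 and 7.21 at T36, against 6.94, 6.93, 6.89, 6.95 and 6.93 at ZT12. The change was 0.25 (SE 0.04, adjusted p = 6.6e-06 by limma), with no overlap. Cacng8 stood at 5.85, 5.80 and 5.85 at T36, against 5.46, 5.66, 5.62, 5.54 and 5.51 at ZT12. The Cacng8 change was 0.27 (SE 0.07, adjusted p = 0.00324 by limma), also with no overlap.

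The falls at T36 were smaller. Cacnb2, a beta subunit (chr2:14603861-14988811), stood at 4.91, 4.99 and 4.92 at T36, against 5.07, 5.10, 5.14, 5.21 and 5.21 at ZT12. The groups did not overlap, and the change was -0.21 (SE 0.06, adjusted p = 0.015 by limma). The call was lost without T36S1 (0.0899) or T36S4 (0.0542) and within batch 1 (0.113). It was also lost in limma fitted on the compared groups alone (0.0666) and with a term for animal number (0.0514).

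Scn2a1, the sodium channel pore of excitatory axon initial segments (chr2:65620764-65767447), stood at 6.94, 7.18 and 7.18 at T36, against 7.24, 7.26, 7.33, 7.32 and 7.28 at ZT12. The change was -0.19 (SE 0.06, adjusted p = 0.029 by limma), and T36S1 was the lowest animal. Without T36S1 the change was -0.11 (adjusted p = 0.359 by limma), without T12N4 the adjusted p was 0.0656, and within batch 1 it was 0.0881. Fitted on the compared groups alone, the Scn2a1 change had an adjusted p of 0.136 in limma.

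Cacna1c and Cacnb1, which rose at T30, were not called at T36. For Cacna1c the change was -0.01 at T36 and 0.33 at T30, a difference of -0.34 (adjusted p = 0.0472 by limma). For Cacnb1 it was 0.11 at T36 and 0.34 at T30, a difference of -0.23 (adjusted p = 0.0372 by limma). With Cacna2d3 these were the 3 channel genes whose change differed between T36 and T30, when 11.4% of all genes did, 5.61% with a higher and 5.75% with a lower change at T36. The count fell to 1, Cacna2d3, without any of T12N6, T6N2, T6N4, J76N2, T30S3, T30S4, T36S2 or T36S4, and within batch 1.

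Between T27 and T30 no channel gene was shown to change its response, with 4 at an unadjusted p below 0.05, and 0.00722% of all genes were called in that limma test. Between T42 and T36, 3 channel genes differed, Cacna2d3, Cacng8 (by -0.34, adjusted p = 0.0233 by limma) and Cacna1a (by -0.21, adjusted p = 0.0136 by limma), when 3.3% of all genes did, 1.22% higher and 2.08% lower. Within batch 1 the count was 1.

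Values of the T-type pores Cacna1g and Cacna1h and of the release channels Itpr1 and Ryr1 are given whatever the test found. Cacna1g was higher at T27 too, at 6.76, 6.59 and 6.62 in T27 animals against 6.46, 6.38 and 6.47 in ZT3 animals, without passing the test (change 0.22, adjusted p = 0.137 by limma). Cacna1h stood at 4.31, 4.16 and 3.96 at T30, against 4.09, 4.17, 3.99, 4.11 and 4.07 at ZT6. Its change at T30 was 0.05, with a 95% interval between -0.16 and 0.26, and the groups overlapped.

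Itpr1, the inositol trisphosphate receptor of most neurons, stood at 7.84, 8.02 and 7.95 at T30, against 7.81, 7.78, 7.86, 7.81 and 7.76 at ZT6. Its change of 0.13 did not pass (adjusted p = 0.0953 by limma). Ryr1, the ryanodine receptor best known from skeletal muscle, stood at 2.04, 1.99 and 2.07 at T30, against 2.06, 2.08, 2.12, 2.07 and 2.04 at ZT6, a change of -0.04 with a 95% interval between -0.23 and 0.15.

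From T42 onward a single channel gene was called in any comparison. At T42 none of the 43 was called by limma, 3 had an unadjusted p below 0.05, and 1.05% of all genes were called, 0.614% higher and 0.433% lower. At T48 1 was called, Cacna2d3, now lower, when 1.27% of all genes were called, 0.571% higher and 0.701% lower. Its levels were 6.05, 5.86 and 5.80 at T48, against a lowest of 6.04, a median of 6.14 and a highest of 6.26 in the 8 ZT0 animals. The groups overlapped through T48S1, and the change was -0.24 (SE 0.06, adjusted p = 0.0399 by limma).

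That call was lost without any of T0N5, J70N1, T0N3, J70N2, T48S3 or T48S4, with adjusted p between 0.0507 and 0.262, and within batch 1 (0.11). Without T48S1 the count of called channel genes was 2. A further 11 channel genes had an unadjusted p below 0.05 at T48. Hcn4 at 0.39, Cacng5 at 0.38, Scn7a at 0.36 and Ryr3 at 0.32 had the largest changes there, none of them called. They were picked out after their values were seen. Hcn4 and Scn7a lay low on a scale whose floor is -1, with means of 0.48 and 1.13 at ZT0.

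At T54, T60, T66, T72, T78, T192 and T198 limma called none of the 43. The share of all genes called was 0.00722% at T54, T60, T72 and T198, 0.0795% at T66 (0.0433% higher and 0.0361% lower), and 0 at T78 and T192. Channel genes with an unadjusted p below 0.05 numbered 5 at T54, 3 at T60, 2 at T66, 3 at T72, 3 at T78, 1 at T192 and 4 at T198. The largest absolute change at these times was -0.50, of Cacna1s at T192, not called. Cacna1s lay low on a scale whose floor is -1, at -0.10 ± 0.24 at ZT0 (SD, n = 8).

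**Figure D2:**
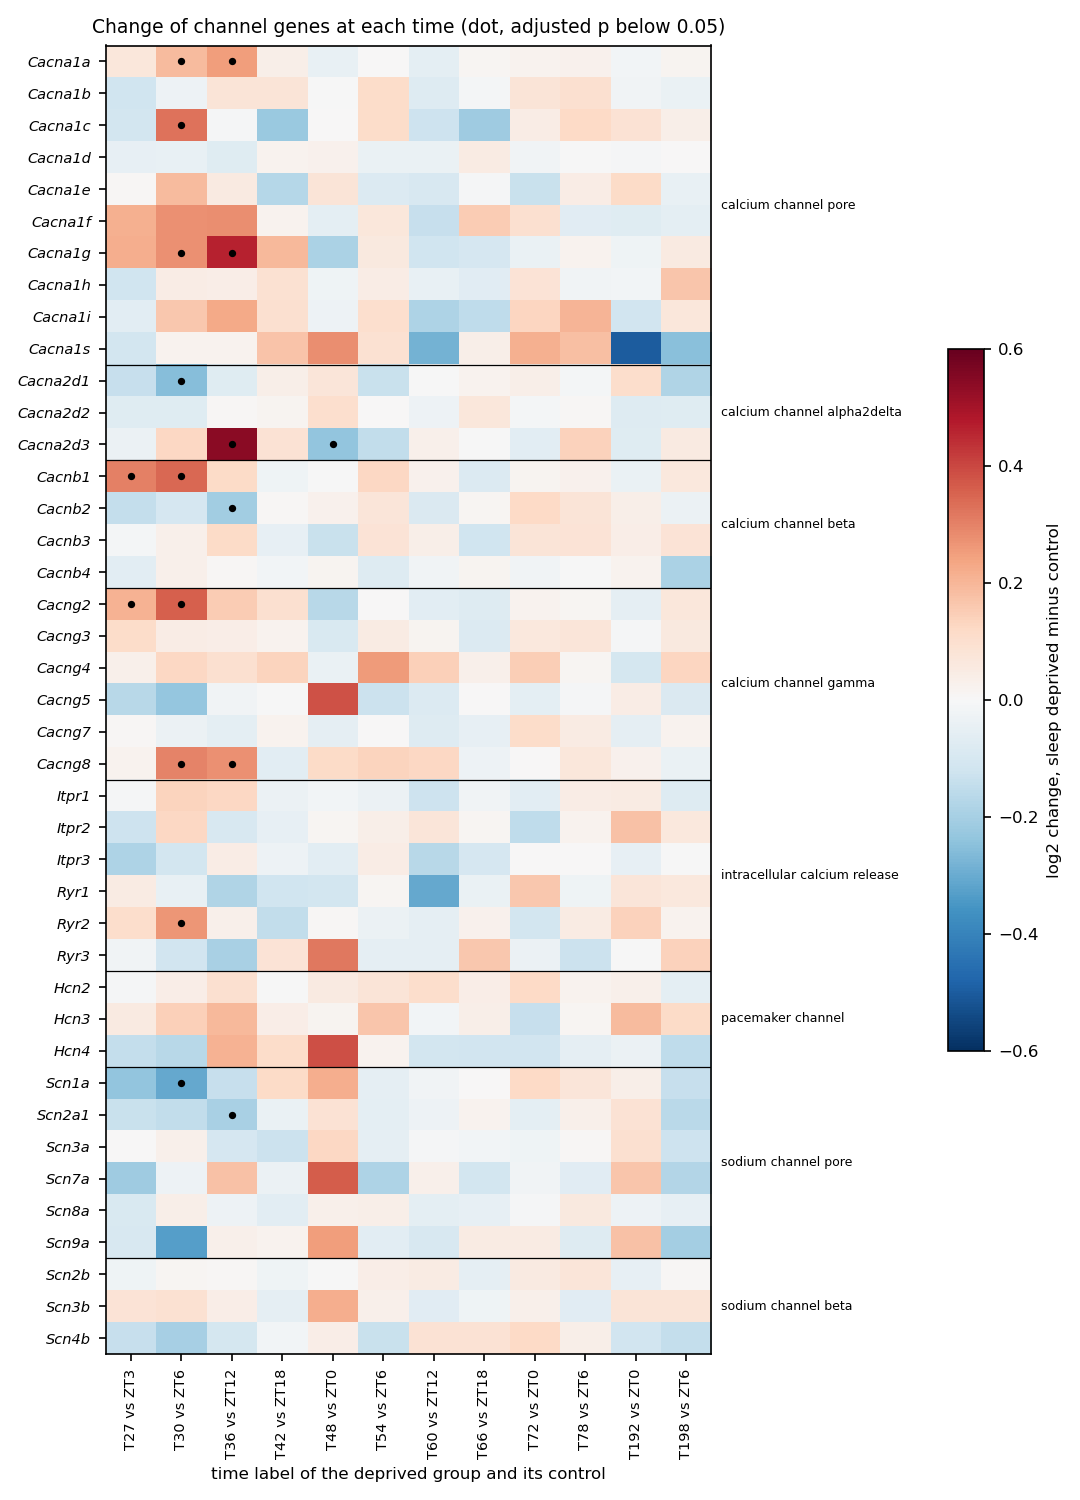
Log2 change of the channel genes reported by name (rows, by family) in each of the 12 deprived groups against controls of the same time of day (columns); colour runs from -0.6 to 0.6 and a dot marks an adjusted p below 0.05. Dots fall at T27, T30, T36 and T48 and at no other time.

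**Figure D3:**
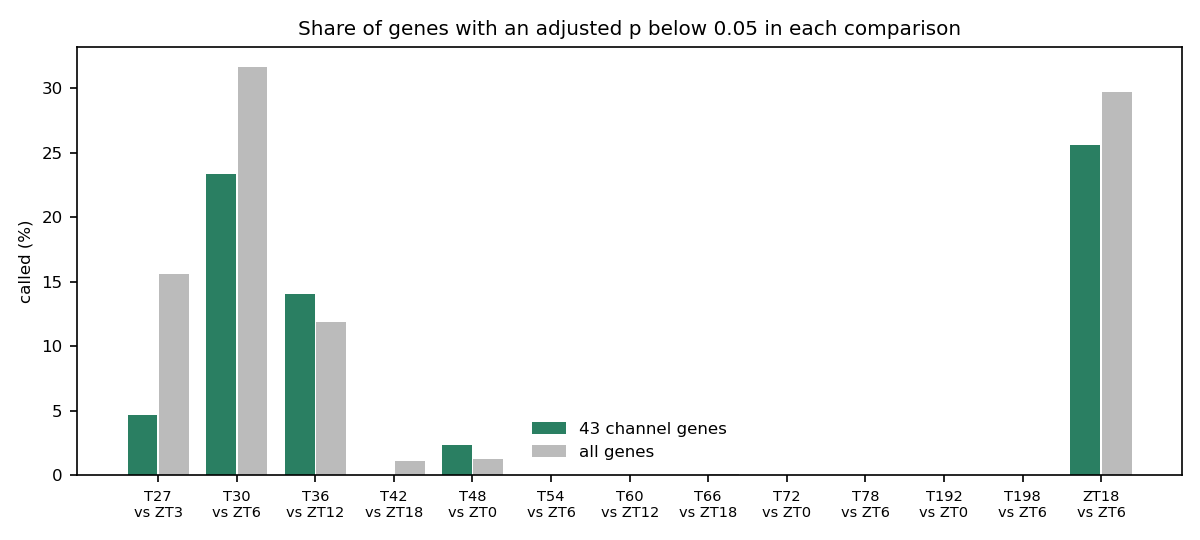
Percent of the 43 channel genes (green) and of all genes (grey) called at an adjusted p below 0.05 in each comparison. The channel genes stood at 4.65% against 15.6% at T27, 23.3% against 31.6% at T30 and 14% against 11.9% at T36.

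In undisturbed mice, 17 of 43 channel genes were called over the 5 control times by limma's F-test. That is 39.5%, near the 40.7% of all genes, so the count says nothing particular about the channel genes. It was 7 within batch 1, and 11 without T18N3.

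Cacna1c had the widest range, with its highest mean of 4.86 ± 0.08 at ZT18 and its lowest of 4.46 ± 0.09 at ZT6 (SD, n = 5 each), a fold of 1.32. Ryr3 was highest at ZT12 (3.68 ± 0.19) and lowest at ZT18 (3.37 ± 0.16). Cacna2d3 was highest at ZT0 (6.14 ± 0.08, n = 8) and lowest at ZT12 (5.84 ± 0.04), the time at which its rise after deprivation was measured.

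Cacna2d1 ran the other way to Cacna1c, with its highest mean at ZT6 (7.01 ± 0.08) and its lowest at ZT18 (6.75 ± 0.05). Cacnb1 and Scn3b, a sodium channel beta subunit, were highest at ZT18 (6.55 ± 0.07 and 5.67 ± 0.12) and lowest at ZT6 (6.28 ± 0.11 and 5.41 ± 0.12). Scn1a was highest at ZT12 (6.58 ± 0.07) and lowest at ZT0 (6.32 ± 0.10). Cacng8, Scn3a, Cacna1i, Cacnb2 and Cacng2 completed the 12 widest among the 17 called, with ranges between 0.24 and 0.20. Ryr3 lost its call without T12N4, T12N5, T18N3, T18N7 or T18N8, with adjusted p by limma up to 0.136. Cacna1i lost it without T0N5, T0N3, T18N3, T18N4, T18N7 or T6N2, up to 0.146. Cacng2 lost it without T18N3 (0.0642) or T18N7 (0.0553). Within batch 1 alone, adjusted p by limma was 0.462 for Ryr3, 0.21 for Cacna1i and 0.182 for Cacng2. It was 0.113 there for Cacng8, 0.178 for Cacnb2 and 0.0528 for Scn3a. With a term for animal number Ryr3, Cacna1i, Cacnb2 and Cacng2 also lost it.

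Between ZT18 and ZT6, 10 channel genes were higher at ZT18 and 1 lower (25.6% called), when 29.7% of all genes were called, 15.4% higher and 14.3% lower. The count was 7 without T18N3 and 5 within batch 1. The T30 and the ZT18 comparisons share the 5 ZT6 animals, so the changes below are given side by side only. Cacna1c stood at 4.87, 4.88, 4.93, 4.72 and 4.92 at ZT18, against 4.36, 4.48, 4.52, 4.57 and 4.40 at ZT6, with no overlap. Its change was 0.40 (SE 0.07, adjusted p = 2.16e-05 by limma) at ZT18, beside 0.33 at T30.

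Cacnb1 stood at 6.59, 6.63, 6.47, 6.53 and 6.50 at ZT18, against 6.21, 6.45, 6.21, 6.35 and 6.20 at ZT6, again with no overlap. Its change was 0.26 (adjusted p = 2.21e-05 by limma), beside 0.34 at T30. Cacna2d1, the single channel gene lower at ZT18, stood at 6.74, 6.68, 6.82, 6.77 and 6.75 at ZT18, against 7.01, 6.94, 7.14, 7.01 and 6.96 at ZT6. Its change was -0.26 (adjusted p = 9.06e-05 by limma), beside -0.25 at T30.

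Scn3b stood at 5.87, 5.64, 5.58, 5.58 and 5.67 at ZT18, against 5.46, 5.50, 5.28, 5.53 and 5.27 at ZT6, a change of 0.26 beside 0.09 at T30. Cacna1i, a T-type pore, had a change of 0.22 at ZT18 beside 0.16 at T30, and Scn3a 0.21 beside 0.03. The Cacna1i call was lost without T18N3 (adjusted p = 0.0672 by limma) or T6N2 (0.057), and within batch 1 (0.106). Cacng2 had 0.20 beside 0.36, and Cacng8 0.17 beside 0.30. Within batch 1 neither was called at ZT18, at 0.18 for Cacng2 (adjusted p = 0.0905 by limma) and 0.06 for Cacng8 (adjusted p = 0.58 by limma). Without J76N2 the Cacng8 change was 0.10 (adjusted p = 0.163 by limma). Cacna1g, called at T30 with 0.27, had 0.05 at ZT18, and Cacna1a, with 0.19 at T30, had 0.08. The difference between the T30 and ZT18 changes was not tested.

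**Figure D4:**
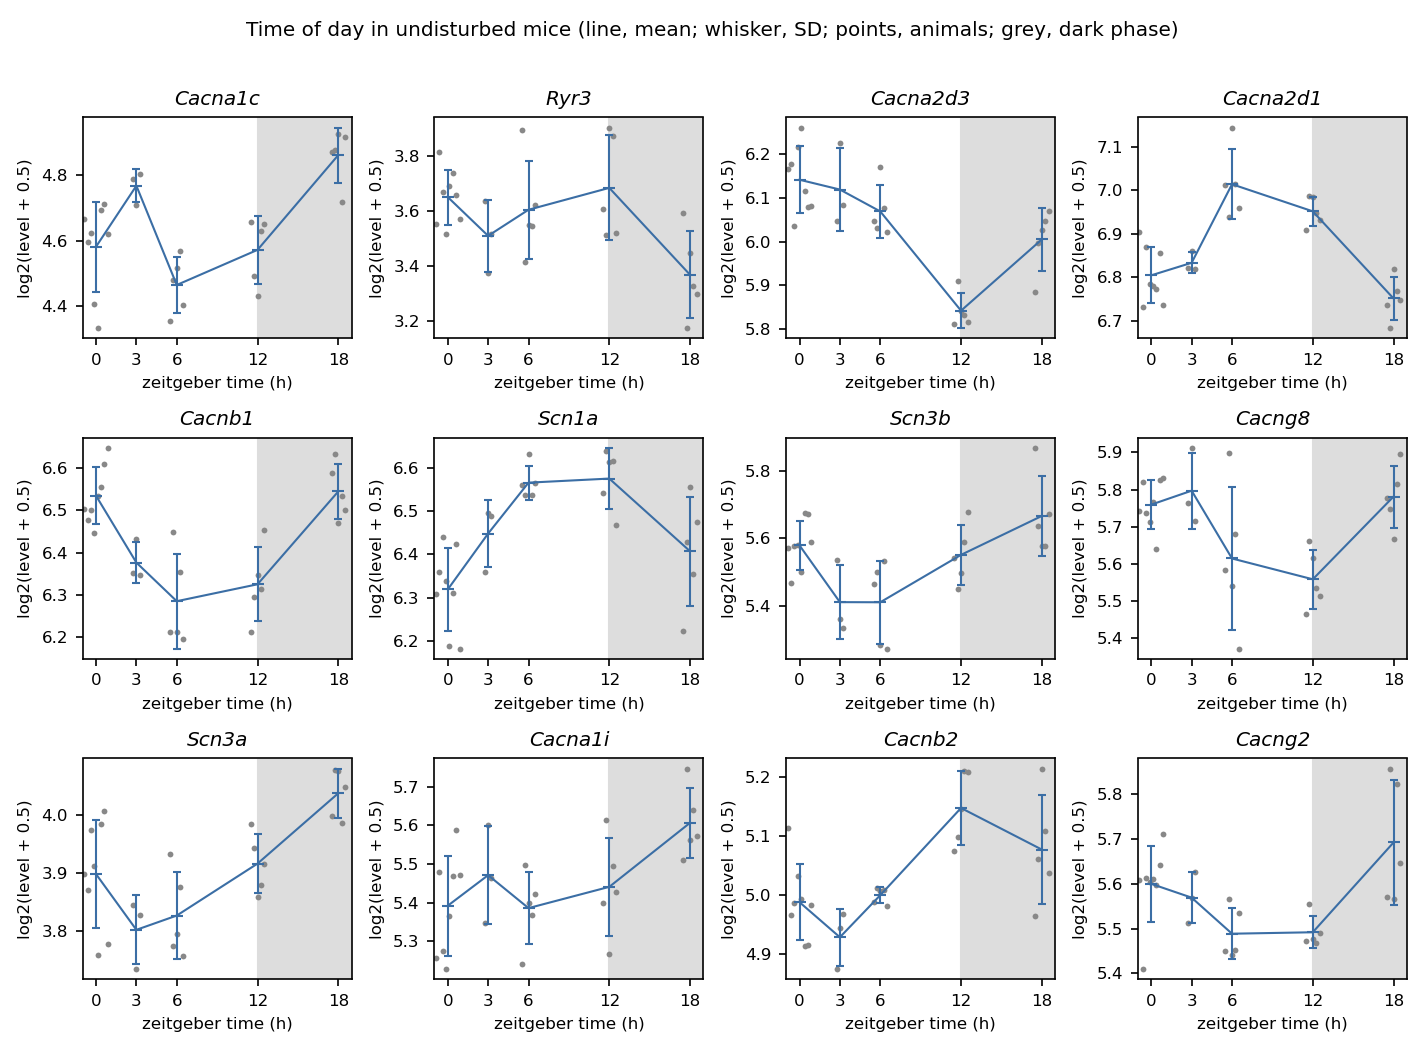
Level, on the log2(level + 0.5) scale, of the 12 channel genes with the widest time-of-day range among the 17 called, in undisturbed mice at ZT0, ZT3, ZT6, ZT12 and ZT18 h; points are animals, lines means and whiskers SD. Cacna1c, Cacnb1 and Scn3b are highest at ZT18 and lowest at ZT6, and Cacna2d1 is highest at ZT6.

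The rest of the calcium pathway was read from lists chosen for their role, with earlier results of these data known. Their counts stand beside the 15.6%, 31.6% and 11.9% of all genes called at T27, T30 and T36, and no list is read as differing from these shares. Of 12 measured pumps and exchangers, which clear calcium from the cytosol, 2 rose at T30, Atp2a2 by 0.11 and Atp2b2 by 0.16, and 3 rose at T36 with 1 fall, Atp2a2 by 0.18, Atp2b2 by 0.23, Atp2a3 by 0.26 and Slc24a4 by -0.28. At T27 none of them rose and 2 fell. Of 15 genes for store-operated entry, mitochondrial uptake and the sodium leak channel, 1 rose and 2 fell at T27, 2 rose and 3 fell at T30, and 2 rose at T36.

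Stim2, the sensor of store calcium, rose at each of these times, by 0.28, 0.25 and 0.30, while Micu3, which gates mitochondrial uptake, fell by 0.21 at T27 and by 0.34 at T30. Unc79, a subunit of the sodium leak channel complex, rose by 0.34 at T30. Of 22 calmodulin kinase and calcineurin genes, 3 rose and 1 fell at T27, 4 rose and 3 fell at T30, and 1 rose and 1 fell at T36. Camk1g rose by 0.77 and 0.83 at T27 and T30, Camkk1 by 0.24 and 0.33 and Rcan1, a calcineurin inhibitor, by 0.28 and 0.34, while Camk2g fell by 0.19, 0.27 and 0.20 at the 3 times.

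Of 7 calcium-activated potassium channel genes, Kcnn2 rose at T27 (0.22) and T30 (0.17), and Kcnmb2 fell at T36 (-0.51). Of 19 channel regulators, 3 rose and 1 fell at T27, 5 rose and 4 fell at T30, and 1 rose and 1 fell at T36. Gem, a small GTPase that inhibits calcium channels, rose by 0.87 and 0.79 at T27 and T30, and Stac3, which binds calcium channels in muscle, rose by 1.21 and 1.32. Fgf14, which binds sodium channels at the axon initial segment, fell by 0.26 and 0.37. List medians stayed between -0.08 and 0.08 at T27, T30 and T36, where the medians of all genes were -0.01, 0.00 and 0.00.

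Markers of the cell types in cortex were read beside these changes. Their counts stand beside the 15.6%, 31.6% and 11.9% of all genes called at T27, T30 and T36. At T48 that share was 1.27%, and at ZT18 against ZT6 it was 29.7%. No marker list is read as differing from these shares. At T36, 3 of 12 inhibitory neuron markers rose and none fell, and their summed level was 1643 to 1679.9 at T36, against 1487 to 1521 at ZT12. Vip (0.49), Lamp5 (0.38) and Dlx1 (0.19) were the ones that rose. At the same time 2 of 10 oligodendrocyte markers fell, with sums of 1931 to 2088 at T36 and 2071 to 2615 at ZT12, and 2 of 10 mural cell markers rose, with sums of 190.1 to 213 at T36 and 171 to 188 at ZT12. Of 10 endothelial markers 2 rose, with sums of 338 to 346 at T36 and 306 to 345 at ZT12. No excitatory neuron marker was called at T36, while 1 rose and 2 fell at T30, and 2 rose and 3 fell at T27.

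At T30, 4 of 12 inhibitory neuron markers rose and 1 fell (sums 1619 to 1679 at T30, 1485 to 1633 at ZT6), and 4 of 10 oligodendrocyte markers fell (sums 1836 to 2466 at T30, 2077 to 2699 at ZT6). Microglia markers summed to 362 to 373 at T30 and 377 to 393 at ZT6, with 1 higher and 4 lower. At T27 the 3 measured choroid plexus markers all fell, with sums of 137 to 150.5 at T27 and 164 to 378 at ZT3. No marker was at 0.

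Of the striatal neuron markers 8 were measured, with 1 higher and 1 lower at T30. They summed to 215.97 to 238 at T30 and 211 to 215.68 at ZT6. At T36 they summed to 224 to 245, against 202 to 215 at ZT12, with none called. Choroid plexus markers summed to 146.5 to 148 at T30 and 157 to 176 at ZT6 (1 lower), and to 152 to 153 at T36 and 164 to 171 at ZT12 (none called). Mural cell markers summed to 189 to 192 at T27 and 197 to 220 at ZT3, with 1 lower. The sums of the choroid plexus lists at these 3 times, and of the mural list at T27, did not overlap between deprived and control animals. Nor did those of the inhibitory neuron and mural lists at T36, the microglia list at T30, or the striatal list at T30 and T36. All other marker sums overlapped at T27, T30 and T36, and how often groups this small separate by chance was not tested.

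At T48, where Cacna2d3 was lower, 2 of 12 inhibitory neuron markers fell, with sums of 1394 to 1508 at T48 and 1525 to 1630.1 at ZT0, which did not overlap. Astrocyte markers gave 2 lower (2001 to 2081 at T48, 2064 to 2299.7 at ZT0) and oligodendrocyte markers 1 higher (2956 to 3368 at T48, 2242 to 3024 at ZT0). Between ZT18 and ZT6, 4 of 10 oligodendrocyte markers were lower (2007 to 2475 at ZT18, 2077 to 2699 at ZT6), and 2 of 8 striatal markers were higher (219 to 239 at ZT18, 211 to 216 at ZT6, with no overlap). Excitatory neuron markers, 2 higher and 1 lower, summed to 1376 to 1491 at ZT18 and 1316 to 1404 at ZT6. The part of cell composition in the channel gene changes was not tested.

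Open chromatin was a readout that the gene rule did not use. ATAC-seq had 3 libraries in each deprived group, 1 at T66, and the same controls but for 4 at ZT18. Of 130727 peaks, 823 lay inside the span of a channel gene or within 10000 bases of it, between them covering all 43 genes, and 1 of these peaks was counted for a pair of genes. At T27, 5 of these peaks were called more accessible and none less (0.608%, against 0.689% of all peaks, 0.658% higher and 0.0314% lower). At T30, 11 were higher and 2 lower (1.58%, against 2.6% of all peaks, 2.18% higher and 0.427% lower), and at T36, 7 were higher (0.851%, against 0.618% of all peaks, 0.261% higher and 0.357% lower).

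The count depends on single libraries. At T27 it fell to 1 without T3N4, T27S3 or T27S5 and to 2 without T3N2. At T30 it was 2 without T30S1, 4 without T30S4 and 7 without T6N4, and at T36 it was 1 without T36S2, 2 without T36S1 and 3 without T12N1. edgeR's quasi-likelihood test on the reads recovered from the signal called 5, 4 and 2 of these peaks at T27, T30 and T36.

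A peak inside Scn2a1 was more accessible at all 3 times (chr2:65722267-65722821, 53858 bases after the nearest annotated start). Its deposited signal, a depth-normalized value per peak, was 13.6, 17.9 and 15.4 at T27, against 6.09, 5.09 and 5.13 at ZT3. At T30 it was 10.7, 10.2 and 14.3, against 6.75, 3.44, 4.84, 6.65 and 4.01 at ZT6. At T36 it was 12.5, 8.84 and 8.33, against 4.15, 6.06, 5.23, 2.94 and 5.69 at ZT12.

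The deprived and control libraries of the Scn2a1 peak did not overlap at any of the 3 times. The log2 changes were 1.44 (adjusted p = 0.000724), 1.08 (0.00188) and 0.91 (0.0315) by limma at T27, T30 and T36. The T36 call was lost without T12N1, T12N4, T12N5, T36S1 or T36S2, with adjusted p between 0.0591 and 0.243, and the T30 call without T30S4 (0.0504). Scn2a1 mRNA changed by -0.13, -0.15 and -0.19 at these times and was called at T36 alone, lower.

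A peak inside Cacna1d, an L-type pore whose mRNA was not called at any time (chr14:30199101-30199776), was more accessible at T27 and T30. Its signal was 8.64, 9.59 and 6.31 at T27, against 4.06, 4.20 and 2.44 at ZT3, and 6.96, 8.58 and 6.80 at T30, against 4.45, 3.59, 5.30, 2.50 and 4.01 at ZT6. The groups did not overlap at either time, with changes of 1.11 (adjusted p = 0.0395 by limma) and 0.98 (adjusted p = 0.0235 by limma). The T27 call was lost without T3N2, T3N4, T27S2, T27S3 or T27S5, with adjusted p between 0.0631 and 0.296, and with libraries centred on their median (0.0569). The T30 call was lost without J76N2, T6N3, T30S1, T30S3 or T30S4, with adjusted p between 0.051 and 0.105, and in edgeR's test (0.146).

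A peak inside Cacna2d1 (chr5:16355444-16356366) was more accessible at T30, when Cacna2d1 mRNA was lower. Its signal was 15.7, 15.0 and 14.8 at T30, against 9.91, 6.89, 7.38, 6.10 and 6.24 at ZT6, with no overlap. The change was 1.02 (SE 0.20, adjusted p = 0.000703 by limma), and it passed with each of the 8 libraries left out. Another peak of Cacna2d1 (chr5:16000702-16001394) was more accessible at T27, by 0.82 (adjusted p = 0.0172 by limma), and kept its call in 2 of 6 fits with a library left out.

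The other named peaks had changes near 1 log2 unit. At T27 they lay in Cacna1d (chr14:30111899-30112189, 1.40) and Cacna1c (chr6:119077151-119077542, 1.16). The Cacna1d peak kept its call in 3 of the 6 fits with a library left out. Its change was 0.80 without T3N4 (adjusted p = 0.518 by limma) and 0.38 with a pseudocount of 5 in place of 0.5 (adjusted p = 0.121), and edgeR gave an adjusted p of 0.108. The call was also lost without T27S3 or T27S5, and with a term for animal number (adjusted p = 0.147 by limma). The Cacna1c peak kept its call in 2 of the 6 and lost it without T3N2, T3N4, T27S3 or T27S5, with adjusted p between 0.138 and 0.327. By limma it also lost the call with libraries centred on their median (0.0585) and with a term for animal number (0.0665).

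At T30 they lay in Cacna1d (chr14:30236439-30236909, 1.06), Ryr3 (chr2:113019920-113020502, 0.92) and Cacna1e (chr1:154802244-154802795, 0.90). The 2 that were less accessible at T30 lay in Ryr2 (chr13:11662720-11663239, -1.0) and just before the start of Scn2b (chr9:45115644-45116158, -0.83). None of these 5 was called by edgeR, with adjusted p between 0.097 and 0.254. With each of 8 libraries left out in turn, the Cacna1d peak kept its call in 3 fits, Ryr3 in 4, Cacna1e in 2, Ryr2 in 3 and Scn2b in 4. Without T30S1 the Ryr2 change was -0.60 (adjusted p = 0.456 by limma).

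At T36 they lay in Cacna1c (chr6:118649377-118649778, 1.25), Cacna1d (chr14:30240940-30241550, 1.07, and chr14:30365695-30366372, 0.99), Ryr2 (chr13:11914487-11915319, 0.89) and just before the span of Cacna1a (chr8:84336235-84336811, 1.04). Of these 5, the Cacna1c and the second Cacna1d peak kept their call in 7 of 8 fits with a library left out, Cacna1a in 6, the first Cacna1d peak in 4 and Ryr2 in 3. edgeR called the Cacna1c and Cacna1a peaks and not the others, with adjusted p between 0.0622 and 0.159. A pseudocount of 5 made the change of every named peak smaller. Exon and intron structure at these peaks was not used here.

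**Figure D5:**
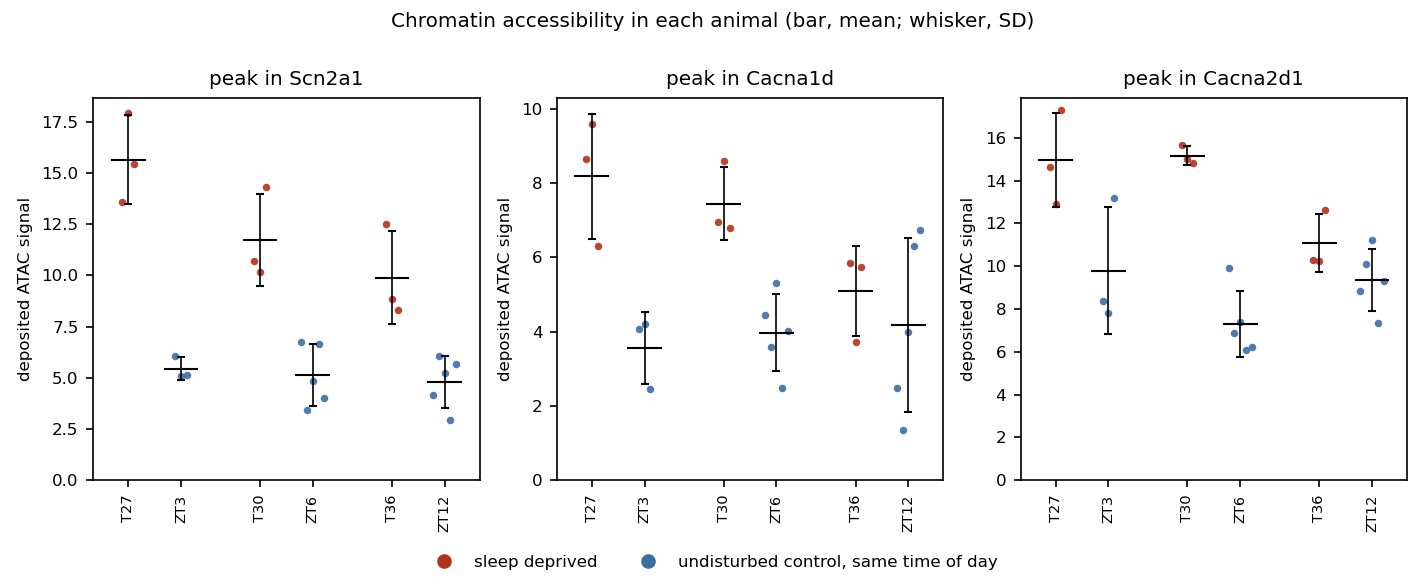
Deposited ATAC signal of 3 peaks, in Scn2a1, Cacna1d and Cacna2d1, in each animal at T27, T30 and T36 (red) beside controls of the same time of day (blue); bars are means and whiskers SD, and the axes start at 0. The Scn2a1 peak lies at 13.6 to 17.9 at T27, against 5.09 to 6.09 at ZT3.

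Of the 42 peaks centred within 1000 bases of a start, in 28 channel genes, limma called none at T27, T30 or T36, and 2, 4 and 1 had an unadjusted p below 0.05. Over all peaks 0.689%, 2.6% and 0.618% were called, so nothing about promoters is read from 42 peaks. At T30 their changes ran from -0.76 to 0.35. The promoter peak of Cacna2d1 had a signal of 17.2 ± 2.5 at T30 and 18.8 ± 3.3 at ZT6 (SD, n = 3 and 5), and that of Scn1a 14.5 ± 2.9 at T30 and 13.9 ± 2.7 at ZT6. The promoter peak of Cacng2 had 10.1 ± 0.29 at T30 and 11.5 ± 1.6 at ZT6. Changes were -0.15 for Ryr2, 0.15 and -0.16 for the pair of Cacna1c, and -0.04, -0.47 and -0.36 for the 3 of Cacnb1, with overlap in each.

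RefSeq promoter windows of build GRCm38.p6, each 300 bases long and mostly upstream of a start, were found for 32 of the 43 genes, 43 windows in all. Genes with no window included Cacna1a, Cacna1g, Cacna1h, Cacng4, Hcn3, Itpr1, Ryr3, Scn3a and Scn3b. The windows were searched on both strands for the letters of sites of activity-induced and clock factors, and the windows below belong to 5 members called at T30 or T36, chosen after their values were seen. Capitals mark a match to the Egr letters GCGNGGGCG, and positions count from the start of transcription. All are given 5′ to 3′ on the gene's strand: Cacna1c (chr6:119108446-119108745, minus strand), Cacna2d1 (chr5:15934441-15934740, plus strand), Cacng2 (chr15:78119231-78119530, minus strand), Cacnb1 (chr11:98022578-98022877, minus strand) and Cacna2d3 (chr14:29721815-29722114, minus strand).
Cacna1c: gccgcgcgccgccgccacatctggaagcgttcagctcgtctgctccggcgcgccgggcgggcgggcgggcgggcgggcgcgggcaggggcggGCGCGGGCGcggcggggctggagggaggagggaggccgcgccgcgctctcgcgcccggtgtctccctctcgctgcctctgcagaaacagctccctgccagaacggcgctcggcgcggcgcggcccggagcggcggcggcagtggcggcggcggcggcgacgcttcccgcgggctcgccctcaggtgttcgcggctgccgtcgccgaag
Cacna2d1: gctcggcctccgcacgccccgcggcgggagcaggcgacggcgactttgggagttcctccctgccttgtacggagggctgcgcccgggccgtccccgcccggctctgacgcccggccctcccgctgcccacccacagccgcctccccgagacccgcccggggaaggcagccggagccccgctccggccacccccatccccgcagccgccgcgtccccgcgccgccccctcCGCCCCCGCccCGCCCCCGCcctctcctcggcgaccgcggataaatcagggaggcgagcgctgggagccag
Cacng2: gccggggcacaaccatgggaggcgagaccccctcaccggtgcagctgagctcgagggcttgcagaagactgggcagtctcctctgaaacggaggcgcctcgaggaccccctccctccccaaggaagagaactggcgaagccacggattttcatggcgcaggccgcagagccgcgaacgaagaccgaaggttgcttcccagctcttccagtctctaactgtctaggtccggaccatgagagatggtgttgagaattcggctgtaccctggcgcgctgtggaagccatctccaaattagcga
Cacnb1: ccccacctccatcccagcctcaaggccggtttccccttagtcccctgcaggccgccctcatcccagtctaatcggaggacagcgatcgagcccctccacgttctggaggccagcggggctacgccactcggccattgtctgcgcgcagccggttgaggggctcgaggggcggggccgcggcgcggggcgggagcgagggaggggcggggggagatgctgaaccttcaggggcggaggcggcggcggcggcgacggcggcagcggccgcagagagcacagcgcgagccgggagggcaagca
Cacna2d3: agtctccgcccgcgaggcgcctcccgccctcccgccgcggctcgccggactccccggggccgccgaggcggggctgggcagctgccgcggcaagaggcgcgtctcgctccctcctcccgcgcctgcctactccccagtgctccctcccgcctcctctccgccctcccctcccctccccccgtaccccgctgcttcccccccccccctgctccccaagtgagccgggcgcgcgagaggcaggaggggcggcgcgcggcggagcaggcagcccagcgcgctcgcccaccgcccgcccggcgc

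Of these 5 windows, Cacna1c held 1 Egr match (at -158) and Cacna2d1 held 2 (at -21 and -10). Cacna1c rose and Cacna2d1 fell at T30, and an effect of these letters on either gene was not tested. Cacng2, Cacnb1 and Cacna2d3 held none in these windows, nor did the other 2 windows of Cacna1c or the other window of Cacnb1. Over all 43 channel windows 9 (20.9%) held an Egr match, against 5.55% of all 32851 windows of the table. The channel windows were richer in G and C, with a median of 62% against 52.7% for all. Among windows with at least 60% G and C, 8 of 23 channel windows (34.8%) held the Egr letters, against 16.6% of 9690. This single cut does not match the windows for G and C above 60%. Whether the Egr letters exceed what base composition gives was not tested.

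The other letters were no more frequent than at large. The cyclic AMP response element TGACGTCA was in none of the 43 channel windows, against 1.79% of all. The AP-1 letters TGANTCA were in 2.33%, that of Cacng5, against 7.81%. The E-box CACGTG was in 2.33%, that of Itpr3, against 7.15%, and the D-box TTATGNAA in 2.33%, that of Scn1a at -2, against 3.38%.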

How the data were processed

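The authors deposited RNA values as log2 of a depth-normalized level plus 0.5, and ATAC values as depth-normalized signal per peak (column sums 943538 to 1039380), per the values and file headers. The submitters' processing notes name HTSeq 0.6.1, MACS2 2.1.1, SAMtools, Bowtie2, sleuth 0.29.0, kallisto 0.43.0 and bedtools 2.26.0, and builds GRCm38 and mm10. Whether RNA levels were scaled by length is not given, and 23 values below -1, the floor of that scale, point to a later adjustment (possibly for batch) that no source names. The deposited peak start and end coordinates were used as given (other).

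RNA values of 62 animals and ATAC values of 59 libraries each entered 1 linear model with a mean per group and a batch term (limma 3.58.1, R 4.3.3, with a trend on level; residual degrees of freedom were 44 in RNA, 41 in ATAC), two-sided, with Benjamini-Hochberg adjustment over all genes or peaks. ATAC signal was taken as log2(signal + 0.5), without 1 repeat library. 1 ZT0 animal's RNA column merges both its libraries and was counted as batch 1. T36 labels say during deprivation, but the protocol ends it at T30, which was followed. T60, T66, T192 and T198 are wholly batch 2, the other deprived groups and ZT3 wholly batch 1. Each animal is 1 replicate.

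RNA read counts were not analysed here. Whole reads were recovered for 51 ATAC libraries (100% of values within 0.1 of a whole read, 2.21 to 7.09 M reads, median 4.03 M) and tested with edgeR 4.0.16 as a check chosen after seeing the data, on 3 ZT6 controls.

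Members and lists were chosen with earlier results of these data known. Some members count in the totals but are not reported here by name. Named otherwise were all channel genes called up to T48, with values for up to 6 each way, the 12 called members with the widest time-of-day range, up to 6 peaks each way, up to 4 called examples per list, and Cacna1g, Cacna1h, Itpr1 and Ryr1 throughout. Alternatives changed batch handling, filters, offset, scaling, trend, the groups fitted, the block and the libraries. Fits were tested on simulated data.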

Additional observations from a re-analysis of the deposited data

Results flagged for a closer look

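Among 92 combinations of 23 named channel genes with a control group of 4 or more animals, 5 held an animal set apart from the others. Chance alone sets apart about 1 in 20, but the 92 are not independent, since the genes share the same animals. Cacna1c in T18N7 was 4.72 at ZT18, when the other 4 lay between 4.87 and 4.93. Scn2b in T18N2 was 7.00 at ZT18, with the others at 7.09 to 7.12. Cacna1h in T12N6 was 4.28 at ZT12, with the others at 4.06 to 4.10. Cacng2 in J70N1 was 5.41 at ZT0, with the others at 5.60 to 5.71, and in T12N2 it was 5.55 at ZT12, with the others at 5.47 to 5.49.

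The response to deprivation differed between neighbouring times for 5 genes, by limma's test of the difference. The change at T36 minus that at T30 was 0.42 for Cacna2d3, -0.34 for Cacna1c and -0.23 for Cacnb1. The change at T42 minus that at T36 was -0.46 for Cacna2d3, -0.34 for Cacng8 and -0.21 for Cacna1a.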

How the results depend on the processing

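No called change of a named gene or peak reversed direction under any alternative run. Time-of-day calls carry no direction, and genes named without being called were not put through the alternatives. Of 378 values of named genes under alternatives that keep all libraries 336 kept their call, and of 573 with a library left out 514 did. For peaks these were 110 of 130 and 78 of 142. Counts of called channel genes that moved by over 1.5 times follow. At T27 the count was 1 within batch 1 and with no intensity trend, against 2. At T48, against 1, it was 0 on the compared groups alone and within batch 1, 3 with no batch term, 2 with quantile normalization and 2 with the replicate block. At ZT18 against ZT6 it was 5 within batch 1, against 11, and over time of day 7 within batch 1 and 11 with the replicate block, against 17. The genes that differed between T36 and T30 numbered 1 within batch 1 and with the block, against 3, and between T42 and T36 1 within batch 1, against 3. Residuals of same-numbered samples of different groups had a median correlation of -0.0014 over 330 RNA pairs, with 18.8% of pairs above 0.1. The pairs were pooled over all groups, so this cannot settle whether animal numbers pair certain samples. The block changed the T30 count to 9, against 10, and the T36 count to 5, against 6. For peaks, T27 gave 8 with a pseudocount of 5, 3 with libraries centred on their median and 3 with the replicate block, against 5. Promoter peaks alone gave 0 at T27, T30 and T36, and edgeR gave 4 at T30 and 2 at T36, against 13 and 7.

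Leaving out a library in turn gave 1 to 2 channel genes at T27, 7 to 11 at T30, 4 to 7 at T36, 0 to 2 at T48, 0 to 1 at T54 and at T198 (1 without T54S4 and 1 without J76S2), 0 to 0 at T42, T60, T66, T72, T78 and T192, 7 to 13 at ZT18 against ZT6 and 11 to 19 over time of day. It gave 0 to 0 genes that differed between T30 and T27, 1 to 3 between T36 and T30 and 2 to 3 between T42 and T36. Peaks numbered 1 to 7 at T27, 2 to 11 at T30 and 1 to 7 at T36. The cause of these shifts was not tested. Precision is limited by 3 animals per deprived group, with standard errors of the called T30 changes between 0.04 and 0.10. At T66 the single ATAC library was assumed to vary like the other groups.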
